A study of Canis lupus familiaris with 22 samples.

Results

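Tumour necrosis factor (TNF), its receptors, the subunits of the transcription factor NF-kB and 2 feedback inhibitors of NF-kB were followed in the blood of dogs with canine atopic dermatitis (cAD). The genes were taken by symbol: the ligand *TNF*, the receptors *TNFRSF1A* and *TNFRSF1B*, the subunits *NFKB1*, *NFKB2*, *REL*, *RELA* and *RELB*, and the inhibitors *NFKBIA* and *TNFAIP3*. Every probe for a transcript whose gene name in the scanner files equalled a symbol was included, which gave 10 of 14227 gene names. They were measured by 18 probes, 2 for each of 8 genes and 1 each for *REL* and *RELB*. TNF is an inflammatory cytokine released mainly by monocytes, macrophages and T cells, and its receptors pass the signal to NF-kB. At rest, NF-kB dimers are held in the cytoplasm by inhibitors such as NFKBIA, and a signal that destroys the inhibitor lets the dimers enter the nucleus. Active NF-kB switches on inflammatory genes and also the genes for NFKBIA and for TNFAIP3, a ubiquitin-editing enzyme, so that the response limits itself.

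Blood RNA from 22 samples was hybridized to Agilent canine arrays with 2 colour channels. The groups were 8 healthy control dogs (ctrl), 7 cAD patients before allergen-specific immunotherapy (ASIT, group 0) and the same 7 dogs after 6 months of ASIT (group 6 months). All dogs were adult and privately owned, of various breeds and both sexes, and their exact ages are not given in the labels. RNA of each dog carried Cy5 and a pool of RNA from healthy dogs outside the 3 groups carried Cy3, with no exchange of dyes. The labels name venous whole blood, whereas the methods name peripheral blood nuclear cells. Values below are log2 ratios of Cy5 over Cy3, so that 0 is the level of the pool. The ctrl arrays lay on slides 1 and 2 and were scanned on another day than the cAD arrays on slides 3 to 6, so that disease cannot be told apart from slide and scan day in either comparison with ctrl. Both of these comparisons also share the 8 ctrl arrays. Arrays before and after ASIT shared a slide for dogs 1 and 2 on slide 3 and for dog 3 on slide 4. For dogs 4 to 7, the arrays before ASIT lay on slides 4 and 5 and those after ASIT on slide 6, scanned on another day, so that in these 4 dogs therapy cannot be told apart from slide and scan day.

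Of the 18 probes, 15 were well above background in both channels on all 22 arrays. The exceptions were the dimmer *TNF* probe and both *TNFAIP3* probes. The dimmer *TNF* probe was well above background in Cy5 on 8 of 8 ctrl arrays, 2 of 7 arrays before and 4 of 7 arrays after ASIT. In Cy3 it was so on 8, 1 and 2 arrays. The brighter *TNFAIP3* probe was well above background in Cy5 on 8, 7 and 5 arrays and in Cy3 on 8, 7 and 3, and the other *TNFAIP3* probe in Cy5 on 8, 1 and 0 and in Cy3 on 1, 0 and 0. Over all probes, the median share well above background in Cy5 was 87.8% of probes in ctrl, 62.5% before and 61.6% after ASIT, so signal near background was more frequent on the cAD arrays. The part of this difference in the values of the dim probes was not tested. For each gene, the probe detected on most arrays, and among equals the brightest, is called the representative probe.

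Taken over all 18 probes, none of the TNF and NF-kB genes passed the test in any comparison. In 0 vs. ctrl, limma called 0 of 18 probes at an adjusted p under 0.05, beside 16 of 38286 probes or 0.0418% over the array. That count over all probes itself ran from 0 to 440 when 1 array was left out, with 440 without replicate 1, 135 without replicate 2 and 0 without replicates 3 or 6 of group 0, 92 without replicate 3 of 6 months, and 0 without replicates 1, 2, 4, 5 or 8 of ctrl. Limma called 0 of 18 in 6 months vs. ctrl, beside 0% of all probes, and 0 of 18 in 0 vs. 6 months, again beside 0%, and the F-test over the 3 groups called 0, beside 0%. In 0 vs. 6 months, the count over all probes ran from 0 to 103 when 1 array was left out. It was 103 without replicate 1 and 19 without replicate 2 of group 0, and 94 without replicate 3 of 6 months. Over all probes, the F-test count ran from 0 to 193 when 1 array was left out, with 193 without replicate 1 and 32 without replicate 2 of group 0, and 98 without replicate 3 of 6 months. Before adjustment, 1 of 18 probes had p under 0.05 in 0 vs. ctrl, the dimmer *TNF* probe, beside 11.7% of all probes, and that probe was near background on most cAD arrays. The counts at unadjusted p under 0.05 were 0 in 6 months vs. ctrl, 0 in 0 vs. 6 months and 0 in the F-test, beside 7.2%, 5.96% and 9.7% of all probes. Of the 10 representative probes, 4 were higher and 6 lower in 0 vs. ctrl, with a median difference of −0.02, equal to the −0.02 over all tested probes. In 6 months vs. ctrl, 6 were higher and 4 lower, with a median difference of 0.04 beside −0.04 over all probes. In 0 vs. 6 months, 4 were higher and 6 lower, with a median difference of −0.03 beside −0.01. The groups overlapped for every one of the 18 probes in every comparison, and the share of all probes without overlap is not given here. The number of arrays limits the precision, and a p above the threshold does not show equal levels.

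**Figure D1:**
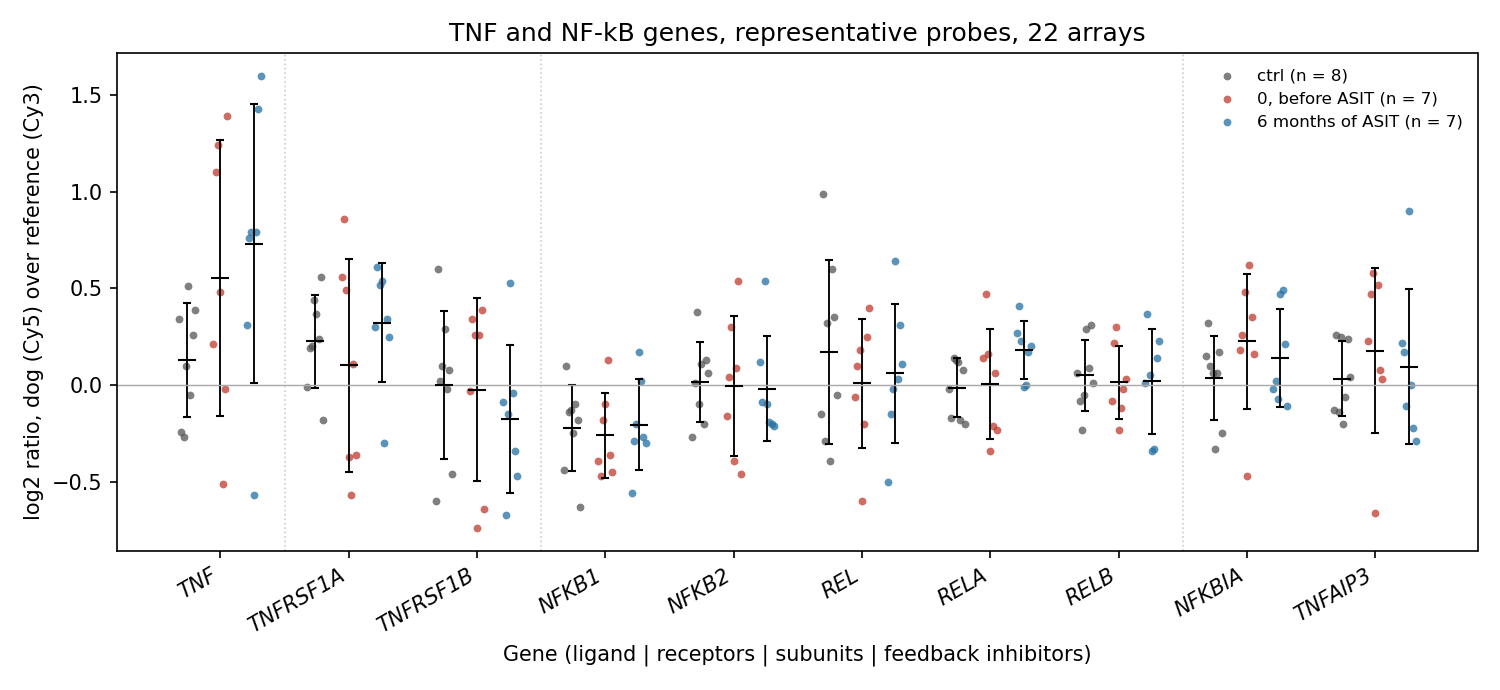
Log2 ratio of Cy5 over Cy3 of the representative probe of the 10 genes in ctrl (n = 8), before ASIT (n = 7) and after 6 months of ASIT (n = 7), with mean and SD. Differences of group means ran from −0.16 to 0.43 in 0 vs. ctrl, from −0.18 to 0.60 in 6 months vs. ctrl and from −0.22 to 0.15 in 0 vs. 6 months.

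With the scanner's own ratios, *TNF* showed the largest differences among the representative probes of the 10 genes in both comparisons with ctrl. This order did not hold with normexp background correction followed by loess or median centring. With the Cy5 channel alone it did not hold in 0 vs. ctrl, where *NFKBIA* differed by 0.46. The representative *TNF* probe ran from −0.27 over a median of 0.18 to 0.51 in ctrl, from −0.51 over 0.48 to 1.39 before ASIT, and from −0.57 over 0.79 to 1.60 after ASIT. Dogs 2, 3 and 7 before ASIT and dogs 6 and 7 after ASIT lay above 1, all ctrl dogs lay below that level, and the groups overlapped. Means were 0.13 ± 0.29 (SD, n = 8) in ctrl, 0.56 ± 0.72 (n = 7) before and 0.73 ± 0.72 (n = 7) after ASIT, and neighbours in this order did not differ beyond their spread. In 0 vs. ctrl the difference was 0.43 with a standard error of 0.29 (1.34-fold, limma adjusted p = 0.62, exact permutation p = 0.145). In 6 months vs. ctrl it was 0.60 with a standard error of 0.29 (1.52-fold, limma adjusted p = 0.681, exact permutation p = 0.051). With the Cy5 channel alone, without the pool, *TNF* was called by limma in 6 months vs. ctrl, with a difference of 0.61 (limma adjusted p = 0.0473), in a setting that called 2.94% of all probes in that comparison and 4096 of 38286 probes in 0 vs. ctrl, where the *TNF* difference was 0.25. With normexp background correction and loess, the *TNF* differences were only 0.12 in 0 vs. ctrl and 0.07 in 6 months vs. ctrl, and with normexp and median centring, called median centring below, 0.08 in each. They were then smaller than those of *TNFRSF1A* in 0 vs. ctrl, −0.15 and −0.28, and of *RELA* with loess, 0.12, or *REL* with median centring, −0.32, in 6 months vs. ctrl. The size of the *TNF* differences thus depended on how background and dye were handled. In blood, more or fewer cells of a type and more or less RNA per cell cannot be told apart.

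Between the visits, *TNF* moved in opposite directions in different dogs. The value before minus the value after ASIT was 0.35, 0.45 and 1.05 in dogs 2, 3 and 4, and −0.10, −1.30, −1.45 and −0.20 in dogs 1, 5, 6 and 7. The mean difference in 0 vs. 6 months was −0.17 with a standard error of 0.30 (limma adjusted p = 0.941, exact sign-flip p = 0.641). With the slide as a block the difference had the other sign, 0.10 (limma adjusted p = 1). That fit rests on slides 3 and 4, which alone held both visits, so on dogs 1 to 3 and the array of dog 4 before ASIT. In dogs 1 to 3 alone, paired by dog, the difference was 0.23 (limma adjusted p = 0.905). The sign of the mean difference stayed, with a larger size, without dog 4, at −0.38 (limma adjusted p = 0.759), and with the Cy5 channel alone, at −0.36 (limma adjusted p = 0.577).

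The dimmer *TNF* probe ran from −0.37 over a median of −0.13 to 0.33 in ctrl. On the cAD arrays both channels were well above background for dog 1 before ASIT and for dogs 1 and 2 after ASIT alone, with values of 0.17, 0.38 and 0.46. Its other ratios in cAD patients had at least 1 channel near background, so no difference between groups is read from this probe. The sequences of both *TNF* probes are shown because they lie in different places of 1 gene and differ in how often they were detected. In canFam3.1 the representative probe lies at chr12:1075962-1076021 on the plus strand, and the dimmer probe is split over chr12:1075319-1075855 on the same strand. Without an annotation of canFam3.1, the exons they lie in cannot be given.
TNF representative probe: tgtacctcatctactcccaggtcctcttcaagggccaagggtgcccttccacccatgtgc
TNF dimmer probe: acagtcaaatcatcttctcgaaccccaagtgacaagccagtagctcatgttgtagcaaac

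Erythroid markers varied widely among the dogs, and they are given beside *TNF*, though no relation of the pair passed the adjusted test. The list held *ALAS2*, *SLC4A1* and *EPB42*, all 3 on the array and well above background on all 22 arrays, with *ALAS2*, the first enzyme of haem synthesis in red cell precursors, the brightest. Their mean log2 ratio ran from −1.32 over −0.07 to 1.27 in ctrl, from −1.28 over 0.80 to 1.44 before and from −0.81 over 1.02 to 1.43 after ASIT. Their summed Cy5 signal had a median of 87300 in ctrl, 178000 before and 258000 after ASIT. All 3 were higher in both comparisons with ctrl, with median differences of 0.26 and 0.54, beside −0.02 and −0.04 over all probes. In 0 vs. 6 months the median difference was −0.29, and limma called 0 of the 3 in each comparison, with 0 at unadjusted p under 0.05. Before ASIT, dog 5 had the lowest and dog 7 the highest value of both *TNF* and the erythroid mean, and after ASIT dog 4 had the lowest and dog 7 the highest value of both. In ctrl the extremes did not match. There, *TNF* was lowest in replicate 3 and highest in replicate 5, and the erythroid mean lowest in replicate 2 and highest in replicate 1.

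Before ASIT, the representative *TNF* probe and the erythroid mean had r = 0.86 over 7 dogs (exact permutation p = 0.0119, adjusted 0.257) and rho = 0.89 (exact permutation p = 0.0123, adjusted 0.332), and r = 0.88 without the 2 farthest dogs. In ctrl, r was 0.49 (exact permutation p = 0.22, adjusted 0.66) and rho 0.45 (exact permutation p = 0.267, adjusted 0.79), and r was 0.09 without the 2 farthest dogs. After ASIT, r was 0.78 (exact permutation p = 0.0357, adjusted 0.305) and rho 0.57 (exact permutation p = 0.2, adjusted 0.72), and r was 0.45 without the 2 farthest dogs. None of these values passed after adjustment, and r dropped without the farthest dogs in ctrl and after ASIT. The dimmer probe, well above background in both channels on all ctrl arrays, had r = 0.95 in ctrl (exact permutation p = 0.000298, adjusted 0.0964), rho = 0.95 (exact permutation p = 0.00114, adjusted 0.312) and r = 0.93 without the 2 farthest dogs, and it is not used in the cAD groups. The next values, of other lists, did not pass after adjustment either. After ASIT, the representative probe and the B cell markers had r = 0.77 (exact permutation p = 0.0177, adjusted 0.261), rho = 0.79 (exact permutation p = 0.048, adjusted 0.444) and r = 0.83 without the 2 farthest dogs. In ctrl, the representative probe and the neutrophil markers had r = −0.75 (exact permutation p = 0.0326, adjusted 0.302), rho = −0.76 (exact permutation p = 0.0368, adjusted 0.444) and r = −0.53 without the 2 farthest dogs. The neutrophil list includes *MPO*, well above background in Cy5 on 3 of 8 ctrl arrays. The dimmer probe and the platelet markers in ctrl had r = −0.90 (exact permutation p = 0.0029, adjusted 0.157), rho = −0.76 (exact permutation p = 0.0368, adjusted 0.444) and r = −0.76 without the 2 farthest dogs.

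These relations were singled out after their values were seen, from 324 relations of member probes with marker lists. Of these, 44 had an unadjusted p under 0.05 and 0 an adjusted p under 0.05. The representative *TNF* probe also had r above 0.8 with 909 probes with a gene name, over the 22 arrays with group means removed. Its values thus followed a pattern shared by many probes of these arrays. With slide means removed within each group, without slides that held 1 array of the group, r of the representative *TNF* probe with the erythroid mean was 0.38 in ctrl, 0.90 before and 0.97 after ASIT, the last over 6 arrays on 2 slides. The slide-centred values were added after the data were seen and carry no p. The part of erythroid or other cells' RNA in the *TNF* differences was not tested.

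**Figure D2:**
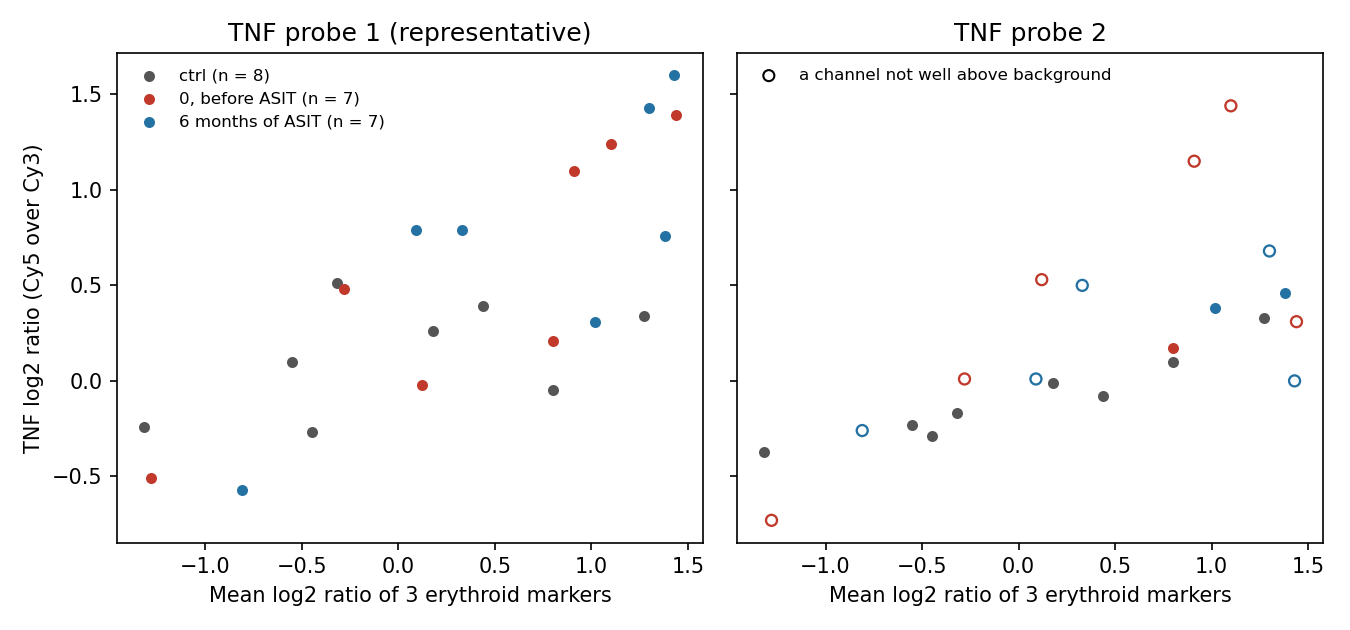
Log2 ratio of both *TNF* probes against the mean log2 ratio of 3 erythroid markers in each array. For the representative probe, r was 0.49 in ctrl, 0.86 before and 0.78 after ASIT, and open points of the dimmer probe, r = 0.95 in ctrl, had a channel not well above background.

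*TNFRSF1A*, the receptor on most cell types that recruits death domain proteins, varied most in the dogs before ASIT. Its representative probe ran from −0.18 over 0.22 to 0.56 in ctrl, from −0.57 over 0.11 to 0.86 before and from −0.30 over 0.34 to 0.61 after ASIT. Before ASIT, dogs 4, 5 and 7 lay below every control and dog 2 above every control, and the groups overlapped. Means were 0.23 ± 0.24 (SD, n = 8), 0.10 ± 0.55 (n = 7) and 0.32 ± 0.30 (n = 7). The difference was −0.13 in 0 vs. ctrl (limma adjusted p = 0.857), 0.09 in 6 months vs. ctrl (limma adjusted p = 0.931) and −0.22 in 0 vs. 6 months (limma adjusted p = 0.934), where 5 of 7 dogs had the lower value before ASIT (exact sign-flip p = 0.234). In dogs 1 to 3, paired by dog, the sign in 0 vs. 6 months was the other one, 0.16 (limma adjusted p = 0.93). The other probe gave differences of 0.02, 0.22 and −0.19. In 0 vs. 6 months it was higher before ASIT in 4 of 7 dogs, with dog 4 at −1.74. With slide as a block, a fit that rests on slides 3 and 4, the representative probe gave −0.03 in 0 vs. 6 months. With median centring, 0 vs. ctrl was −0.28 for the representative probe, and 6 months vs. ctrl took the other sign, −0.18. Leaving out 1 array, the differences of the representative probe ran from −0.25 to −0.02 in 0 vs. ctrl. They ran from 0.04 to 0.20 in 6 months vs. ctrl and from −0.35 to −0.11 in 0 vs. 6 months.

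The representative probe of *TNFRSF1B*, the receptor found mainly on blood and endothelial cells, was spread over more than 1 log2 unit in each group. It ran from −0.60 over 0.05 to 0.60 in ctrl, from −0.74 over 0.26 to 0.39 before and from −0.67 over −0.15 to 0.53 after ASIT. The lowest value before ASIT and the highest after ASIT came from the same animal, dog 4. Means were 0.00 ± 0.39 (SD, n = 8), −0.02 ± 0.47 (n = 7) and −0.18 ± 0.38 (n = 7). The difference was −0.02 in 0 vs. ctrl (limma adjusted p = 0.982), −0.18 in 6 months vs. ctrl (limma adjusted p = 0.863) and 0.15 in 0 vs. 6 months (limma adjusted p = 0.935), where 5 of 7 dogs were higher before ASIT (exact sign-flip p = 0.594). The other probe gave 0.07, 0.08 and −0.01, each with the other sign. Between the visits, the representative probe gave 0.39 without dog 4 (limma adjusted p = 0.722). In dogs 1 to 3, paired by dog, it gave 0.49 (limma adjusted p = 0.902). *TNFRSF1B* was low where the erythroid markers were high after ASIT, with r = −0.92 (exact permutation p = 0.00278, adjusted 0.157), rho = −0.93 (exact permutation p = 0.00675, adjusted 0.312) and r = −0.71 without the 2 farthest dogs. In ctrl, r was −0.86 (exact permutation p = 0.00722, adjusted 0.222) and rho −0.86 (exact permutation p = 0.0107, adjusted 0.332), and r was −0.54 without the 2 farthest dogs. Before ASIT, r was −0.14 (exact permutation p = 0.782, adjusted 0.946) and rho −0.14 (exact permutation p = 0.783, adjusted 0.979), and r was −0.70 without the 2 farthest dogs. With slide means removed, r was −0.89 in ctrl, −0.21 before and −0.92 after ASIT. The adjustment ran over the same 324 relations, none passed, and the pair was likewise chosen after its values were seen.

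Among the 5 subunits, *RELA*, whose product p65 carries the main activating domain of NF-kB, gave the largest difference from ctrl after ASIT by the representative probes and the scanner's own ratios, but not with median centring or Cy5 alone. It ran from −0.20 over 0.03 to 0.14 in ctrl, from −0.34 over 0.06 to 0.47 before and from −0.01 over 0.20 to 0.41 after ASIT. After ASIT, 5 of 7 dogs lay above every control, dogs 4 and 5 lay among the controls, and so the groups overlapped. The difference in 6 months vs. ctrl was 0.19 with a standard error of 0.13 (limma adjusted p = 0.715, exact permutation p = 0.028). In 0 vs. 6 months it was −0.17 with a standard error of 0.14 (limma adjusted p = 0.934), and *RELA* was the lower of the visits before ASIT in 6 of 7 dogs (exact sign-flip p = 0.0312). In dogs 1 to 3, the pairs that shared a slide, *RELA* before minus after ASIT was −0.13, 0.06 and −0.07, a difference of −0.05 with the dog as a block (limma adjusted p = 0.982), and over all dogs it was 0.00 with median centring. In dogs 4 to 7, whose visits lay on different slides, it was −0.32, −0.20, −0.11 and −0.43. In 0 vs. 6 months with slide as a block, the *RELA* difference was −0.15 (limma adjusted p = 1). That fit rests on slides 3 and 4, so on dogs 1 to 3 and the array of dog 4 before ASIT, at −0.34. With slide as a random block the difference was −0.17. In 0 vs. ctrl it was 0.02 (limma adjusted p = 0.972). The other *RELA* probe gave −0.17, 0.09 and −0.26, and the last of these came with a lower value before ASIT in 6 of 7 dogs (exact sign-flip p = 0.0625), and the pair of probes had r = 0.86 over the 22 arrays with group means removed. The *RELA* difference in 6 months vs. ctrl was 0.12 with normexp and loess and −0.10 with normexp and median centring.

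The representative probes of the remaining subunits had group means close to each other with the scanner's own ratios. *NFKB1*, which encodes the precursor of p50, had means of −0.22 ± 0.22 (SD, n = 8) in ctrl, −0.26 ± 0.22 (n = 7) before and −0.20 ± 0.24 (n = 7) after ASIT. *NFKB2*, which encodes the precursor of p52, had means of 0.01 ± 0.21, −0.01 ± 0.36 and −0.02 ± 0.27. *REL*, the subunit c-Rel of lymphoid cells, had means of 0.17 ± 0.48, 0.01 ± 0.34 and 0.06 ± 0.36, and *RELB*, the partner of p52, had means of 0.05 ± 0.18, 0.01 ± 0.19 and 0.02 ± 0.27. The differences of these 4 genes lay from −0.16 to 0.02, and all had limma adjusted p of at least 0.814. The other *NFKB1* probe gave −0.34 in 6 months vs. ctrl with a standard error of 0.18 (limma adjusted p = 0.681, exact permutation p = 0.0434), a larger difference than that of *RELA*, whereas the representative probe gave 0.02. With median centring, 6 months vs. ctrl was −0.28 for *RELB* in place of −0.03 and −0.32 for *REL* in place of −0.12. With slide as a block, 0 vs. 6 months took the other sign for *NFKB1* with 0.02, for *NFKB2* with −0.28 and for *REL* with 0.13. That fit rests on slides 3 and 4. With the Cy5 channel alone, *NFKB2* had a difference of 0.32 in 6 months vs. ctrl (limma adjusted p = 0.0457) in place of −0.03, and 2.94% of all probes were called there.

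*NFKBIA*, which binds NF-kB dimers and is itself an NF-kB target, was the brightest of the 10 genes on these arrays by mean Cy5 signal of the probe, a comparison that also holds the probes' own affinities. It ran from −0.33 over 0.08 to 0.32 in ctrl, from −0.47 over 0.26 to 0.62 before and from −0.11 over 0.02 to 0.49 after ASIT. Of the dogs before ASIT, 6 lay at 0.16 or above and dog 4 at −0.47, and the groups overlapped. Means were 0.03 ± 0.22 (SD, n = 8), 0.22 ± 0.35 (n = 7) and 0.14 ± 0.25 (n = 7). The difference was 0.19 in 0 vs. ctrl with a standard error of 0.16 (limma adjusted p = 0.695, exact permutation p = 0.216), and 0.11 in 6 months vs. ctrl (limma adjusted p = 0.888). In 0 vs. 6 months it was 0.08 (limma adjusted p = 0.948), with 6 of 7 dogs higher before ASIT and dog 4 at −0.94 (exact sign-flip p = 0.672). In 0 vs. ctrl the *NFKBIA* difference was 0.01 with median centring, 0.46 with Cy5 alone (limma adjusted p = 0.0812) and 0.31 without dog 4 (limma adjusted p = 0.356). Between the visits it was 0.36 with Cy5 alone (limma adjusted p = 0.589) and 0.25 without dog 4 (limma adjusted p = 0.74). The other probe gave 0.25, 0.19 and 0.06, and the pair of probes had r = 0.91 with group means removed. Both sequences are shown because these separate places of the gene gave like values. In canFam3.1 they lie at chr8:14101519-14101578 and chr8:14103181-14103240 on the minus strand.
NFKBIA representative probe: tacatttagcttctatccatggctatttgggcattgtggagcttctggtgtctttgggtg
NFKBIA other probe: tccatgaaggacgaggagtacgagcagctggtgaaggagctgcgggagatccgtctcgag

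*TNFAIP3*, which encodes A20 and removes ubiquitin chains that carry the signal, was dim in both of its probes. The representative probe ran from −0.20 over −0.01 to 0.26 in ctrl, from −0.66 over 0.23 to 0.58 before and from −0.29 over 0.00 to 0.90 after ASIT. Dog 4 had the lowest value before and the highest after ASIT, and the groups overlapped. The 0.90 of dog 4 after ASIT came from an array where Cy3 was not well above background, as it was not for dogs 5, 6 and 7 after ASIT. With normexp and loess the difference in 0 vs. ctrl was 0.03, and with median centring 0.05. In 0 vs. 6 months it was 0.00 with loess and −0.03 with median centring. With the scanner's own ratios, the difference was 0.15 in 0 vs. ctrl with a standard error of 0.19 (limma adjusted p = 0.814, exact permutation p = 0.402), 0.06 in 6 months vs. ctrl (limma adjusted p = 0.954) and 0.08 in 0 vs. 6 months (limma adjusted p = 0.956), with 6 of 7 dogs higher before ASIT (exact sign-flip p = 0.859). For dogs 4 to 7 this count rests on values after ASIT whose Cy3 was not well above background. Without dog 4, *TNFAIP3* was 0.29 in 0 vs. ctrl (limma adjusted p = 0.395) and 0.36 in 0 vs. 6 months (limma adjusted p = 0.64). The other probe was well above background in Cy3 on 1 of 22 arrays and in Cy5 on 0 of 7 arrays after ASIT, and its ratio was exactly 0 on 4 arrays before and 3 after ASIT, so no difference is read from it.

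The subunits were set against the feedback inhibitors as the mean log2 ratio of the 5 subunits minus that of the 2 inhibitors in each array. This score ran from −0.17 over −0.06 to 0.24 in ctrl, from −0.63 over −0.29 to 0.23 before and from −0.61 over −0.04 to 0.21 after ASIT. Below 0 lay 6 of 8 ctrl dogs and 6 of 7 dogs before ASIT, with dog 4 above it, and the groups overlapped. With all probes of the genes, including those near background, all 7 dogs before ASIT lay below 0, dog 4 at −0.25. The mean score with all probes was below 0 in every group, at −0.17 in ctrl, −0.36 before and −0.28 after ASIT. With the representative probes, mean scores were −0.03 ± 0.13 (SD, n = 8), −0.25 ± 0.26 (n = 7) and −0.11 ± 0.30 (n = 7). The subunit means were 0.00 ± 0.12, −0.05 ± 0.17 and 0.01 ± 0.09, and the inhibitor means 0.03 ± 0.18, 0.20 ± 0.38 and 0.12 ± 0.29. The score differed by −0.22 in 0 vs. ctrl and by −0.08 in 6 months vs. ctrl. Between the visits, 0 vs. 6 months, it differed by −0.14. It was lower before than after ASIT in 6 of 7 dogs, and dog 4 went the other way by 0.84. Without dog 4, left out after its values were seen, the differences were −0.30, 0.00 and −0.30. In dogs 1 to 3, whose visits shared a slide, the score was lower before ASIT by a mean difference of −0.30. With median centring of the arrays, 0 vs. 6 months had the other sign, 0.04, and 6 months vs. ctrl was −0.20. After ASIT the score holds *TNFAIP3* ratios whose Cy3 signal was not well above background in dogs 4 to 7. The score was not tested.

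**Figure D3:**
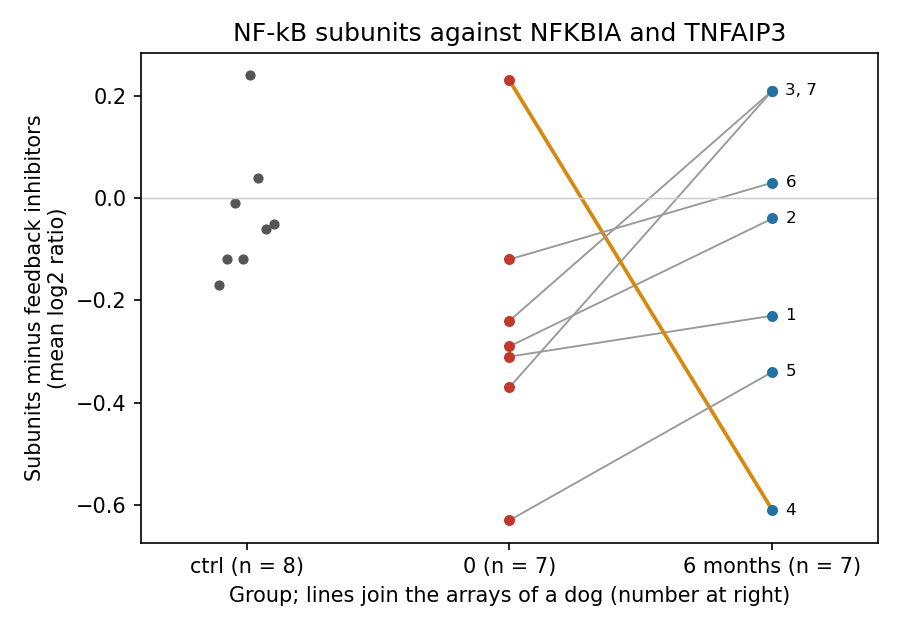
Mean log2 ratio of 5 NF-kB subunits minus that of 2 feedback inhibitors in each array, with lines that join the visits of a dog and dog 4 in orange. Group means were −0.03 in ctrl, −0.25 before and −0.11 after ASIT, with SD of 0.13, 0.26 and 0.30.

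Dog 4 stood apart in several genes. Before ASIT it had the lowest of the 7 values in 6 of 10 genes, namely *TNFRSF1B*, *REL*, *RELA*, *RELB*, *NFKBIA* and *TNFAIP3*. After ASIT it had the highest value in *TNFRSF1B*, *NFKB1*, *REL* and *TNFAIP3* and the lowest in *TNF*, *RELA* and *RELB*. Of its 10 genes, 8 were lower before than after ASIT. Among the marker lists, dog 4 also had the lowest means of neutrophil (−0.57) and platelet markers (−1.15) before ASIT, and of B cell (−1.19), platelet (−0.81) and erythroid markers (−0.81) after ASIT, and their part in its values was not tested. The neutrophil mean includes *MPO*, well above background in Cy5 on 3 of 7 arrays before ASIT. Among the ctrl dogs, replicate 2 had the highest value in 5 genes. Without both arrays of dog 4, limma called 0 of 18 probes in each comparison, and 3, 2 and 1 had unadjusted p under 0.05 in 0 vs. ctrl, 6 months vs. ctrl and 0 vs. 6 months, respectively, beside 13%, 13.2% and 7.2% of all probes without dog 4.

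Around these genes, 97 further genes of the pathway were taken by name in 6 lists, of which 82 were on the array and 80 were tested. Limma called 0 of 80 in each comparison, and 3, 3 and 1 had unadjusted p under 0.05 in 0 vs. ctrl, 6 months vs. ctrl and 0 vs. 6 months, beside 11.7%, 7.2% and 5.96% of all probes. Of the 15 ligands of the TNF family, 12 were tested, with median differences of −0.05, −0.09 and 0.07 in that order. *TNFSF8*, the CD30 ligand of activated T cells, had means of 0.27 ± 0.19 (SD, n = 8) in ctrl, −0.09 ± 0.38 (n = 7) before and −0.17 ± 0.34 (n = 7) after ASIT. Its difference was −0.37 in 0 vs. ctrl (limma adjusted p = 0.398, exact permutation p = 0.0272) and −0.44 in 6 months vs. ctrl (limma adjusted p = 0.681, exact permutation p = 0.00622). *CD40LG*, with which helper T cells activate B cells, was higher before than after ASIT in 6 of 7 dogs, by a mean difference of 0.38 (limma adjusted p = 0.929, exact sign-flip p = 0.0469). *LTB*, a lymphotoxin subunit, gave 0.30 in the same comparison, with 6 of 7 dogs higher (limma adjusted p = 0.934, exact sign-flip p = 0.0469). Markers of B and T cells lay in the same direction, with 4 of 4 and 4 of 5 higher before than after ASIT and median differences of 0.29 and 0.30, and their part in these values was not tested.

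Of the 16 other receptors of the family, 10 were tested, with median differences of −0.07, −0.18 and 0.08. *CD27*, a costimulatory receptor of lymphocytes, had a difference of −0.32 in 6 months vs. ctrl (limma adjusted p = 0.681, exact permutation p = 0.0277), and *CD40*, its relative on B cells, one of −0.55 (limma adjusted p = 0.722, exact permutation p = 0.15). Of the 20 adaptors and ubiquitin enzymes, 17 were tested, with medians of −0.03, −0.05 and 0.06. *TRAF3*, an adaptor that restrains the NFKB2 branch, had a difference of −0.40 in 6 months vs. ctrl (limma adjusted p = 0.681, exact permutation p = 0.00963). *TRAF5*, another adaptor, had a difference of 0.46 in 0 vs. ctrl (limma adjusted p = 0.496, exact permutation p = 0.0547). None of these passed the test.

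Of the 7 genes of the IkB kinases and related kinases, 5 were tested, with median differences of 0.22, 0.00 and 0.04. *MAP3K14*, the kinase that starts the NFKB2 branch, had a difference of 0.36 in 0 vs. ctrl (limma adjusted p = 0.457, exact permutation p = 0.0396) and of 0.32 in 6 months vs. ctrl (limma adjusted p = 0.687, exact permutation p = 0.0485). Of the 13 other IkB proteins and brakes, 12 were tested, with medians of 0.06, 0.05 and −0.02. *ITCH*, a ubiquitin ligase that works with A20, had means of 0.36 ± 0.19 (SD, n = 8), 0.08 ± 0.18 (n = 7) and −0.14 ± 0.36 (n = 7). Its difference in 6 months vs. ctrl was −0.49 with a standard error of 0.15 (limma adjusted p = 0.602, exact permutation p = 0.00373). *NFKBID*, a nuclear IkB protein, had a difference of 0.86 in 6 months vs. ctrl (limma adjusted p = 0.681, exact permutation p = 0.0929), and *BCL3*, another of that kind, one of 0.59 (limma adjusted p = 0.722, exact permutation p = 0.154).

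Of the 26 NF-kB target genes, 24 were tested, with median differences of 0.07, −0.01 and 0.09. *CXCL8*, the neutrophil chemokine named *IL8* in the files, had means of −0.11 ± 0.57 (SD, n = 8), 0.39 ± 0.63 (n = 7) and −0.02 ± 0.49 (n = 7). Its difference was 0.50 in 0 vs. ctrl (limma adjusted p = 0.512, exact permutation p = 0.132) and 0.41 in 0 vs. 6 months, with 5 of 7 dogs higher before ASIT (limma adjusted p = 0.934, exact sign-flip p = 0.0938). *PLAU*, the urokinase gene, had a difference of 0.52 in 0 vs. ctrl (limma adjusted p = 0.575, exact permutation p = 0.0471). *GADD45B*, a stress response gene, had one of −0.44 (limma adjusted p = 0.401, exact permutation p = 0.0862). The targets thus lay on both sides of 0.

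The blood cell markers were looked at beside these genes, and limma called 0 of each list in each comparison. Neutrophil markers, of which 5 of 6 were on the array with *S100A12* the brightest, had mean log2 ratios of 0.02 ± 0.22 (SD, n = 8), 0.13 ± 0.44 (n = 7) and 0.17 ± 0.21 (n = 7). These means include *MPO*, well above background in Cy5 on 3 of 8 ctrl arrays, 3 of 7 before and 2 of 7 after ASIT. Monocyte markers, 4 of 4 with *CD68* the brightest, had means of −0.14 ± 0.32, −0.22 ± 0.27 and 0.03 ± 0.21. T cell markers, 5 of 6 with *CD3D* the brightest, had means of −0.04 ± 0.30, 0.04 ± 0.42 and −0.18 ± 0.24. The groups overlapped in each list. By group means, all 4 monocyte, all 3 erythroid and all 3 platelet markers were lower before than after ASIT, with median differences of −0.24, −0.29 and −0.15. *CSF1R*, the receptor for the growth factor of monocytes, was lower before ASIT in all 7 dogs, with a difference of −0.22 (limma adjusted p = 0.934, exact sign-flip p = 0.0156). *CD68* differed by −0.32 but was higher before ASIT in 4 of 7 dogs (exact sign-flip p = 0.438). *CD163* differed by −0.26 and was higher before ASIT in 2 of 7 dogs (exact sign-flip p = 0.391). B cell markers, 4 of 4 with *MS4A1* the brightest, had means of −0.17 ± 0.31, −0.21 ± 0.69 and −0.56 ± 0.59. *MS4A1*, which encodes CD20, was higher before ASIT by 0.68 and *CD79A*, a part of the B cell receptor, by 0.23, each in 6 of 7 dogs (limma adjusted p = 0.934 each, exact sign-flip p = 0.0312 each). *CD79B* of the same list was higher by 0.14 in the mean, but in only 3 of 7 dogs (limma adjusted p = 0.96, exact sign-flip p = 0.406). Platelet markers, 3 of 4 with *PPBP* the brightest, had means of 0.14 ± 0.43, −0.29 ± 0.54 and −0.08 ± 0.43. Signal of endothelial and keratinocyte markers, 4 of 4 on the array, was also present, with *KRT5*, *KRT14* and *VWF*, which platelets also hold, well above background on all 22 arrays and *CDH5* on 11. That list had means of 0.16 ± 0.11, −0.08 ± 0.21 and 0.02 ± 0.23, which include *CDH5*, well above background in Cy5 on 1 of 7 arrays before and 2 of 7 after ASIT. *KRT14*, *KRT5* and *VWF* differed by −0.18, −0.12 and −0.04 in 0 vs. ctrl. At unadjusted p under 0.05 stood *CD68* with 0.78 in 6 months vs. ctrl (limma adjusted p = 0.681), *PPBP* with −0.65 in 0 vs. ctrl (limma adjusted p = 0.422) and *CDH5* in 0 vs. ctrl. Signal of markers of neutrophils, monocytes, T cells, B cells, red cell precursors and platelets was therefore present, as was that of endothelial and keratinocyte markers. The flags alone do not show which cells were present. The part of any cell type in the values of the TNF and NF-kB genes was not tested.

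The genes most like each member were sought over the 22 arrays by the correlation of log2 ratios with group means removed, among 13668 named probes bright enough on all arrays. *TNF* was most like *PCIF1* and *PSCA* with r of 0.97 each and *FAM109A* with 0.96, and 909 named probes had r above 0.8 with it. *RELB* was most like *ZBTB17* and *GDPD5* with 0.92 each, and 304 named probes had r above 0.8. The other members with a probe bright enough had between 1 and 42 such probes, so *TNF* and *RELB* followed a pattern shared by many probes of these arrays. *TNFRSF1A* was most like *SLC12A9* and *MPP1* with 0.91 each and a probe of *RELA* with 0.90, and *TNFRSF1B* was most like *PSAP* and *VIM* with 0.91 each. *NFKB1* was most like *NCOA1* with 0.89, *NFKB2* like *SLC25A1* with 0.87, *REL* like *PTPRC* and *WDR82* with 0.88 each, and *RELA* like *PNPLA2* with 0.90. *NFKBIA* was most like *TOR1AIP1* and *DUSP1* with 0.80 each. Among the 36 pairs of members, 22 had r above 0. The closest pair was *TNFRSF1A* with *RELA* at 0.81, and the pair farthest below 0 was *TNF* with *NFKB1* at −0.52. All these values share the arrays, slides and pool, and they are given as a description.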

How the data were processed

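Blood RNA (Cy5) was measured against a pool (Cy3) on 22 arrays, 8 of healthy dogs and 7 of cAD patients at each of their visits, before ASIT and 6 months later. Per the labels, the authors took intensity values with Agilent Feature Extraction 10.7.3.1. The deposited scanner files hold background-subtracted, Lowess-normalized intensity in both channels and its log10 ratio. The file headers name another version of the software. The deposited series matrix equals these log10 ratios in the 14 cAD arrays and differs from them in the ctrl arrays (r from 0.711 to 0.844), so the scanner files were used.

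Of 43803 spots for transcripts, spots of a probe were averaged as log2 ratios into 43603 probes. The 208 spots flagged as outliers on an array were left out, and a probe counted as well above background on an array where most of its unflagged spots were. This rule replaced an earlier form after the count of tested probes in an earlier analysis of these data was known, and no member probe was affected. Probes well above background in Cy5 on at least 7 of 22 arrays were tested (38286). In R 4.3.3, with data.table version 1.17.8 to read the files, limma 3.58.1 fitted the 3 groups together, with moderated tests and Benjamini-Hochberg adjustment over all tested probes. Single genes also got exact permutation tests of group means, and 0 vs. 6 months exact sign-flip tests within dogs, whose smallest possible p is 0.0156. Tables and figures were made in Python 3.11.15 (numpy 2.4.6, pandas 2.3.3, matplotlib 3.10.9). The scripts were tested on simulated data.

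The labels name the dog of each cAD array. Over all tested probes the correlation of a dog's visits, after group means were removed, was 0.47, 0.56, 0.17, 0.25, 0.33, −0.04 and 0.25 for dogs 1 to 7. The main fit and its F-test took the visits of a dog as independent. Pairing was used as an alternative and in the sign-flip tests. With the dog as a block, limma called 0 of all tested probes in 0 vs. 6 months.

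The members and lists were chosen with earlier results of these data known. Named genes were all members, by the representative probe, and from each list the 3 genes with the largest difference in a comparison among those well above background on at least 20 arrays, of which the text gives examples. The lists were TNF family ligands, TNF family receptors, receptor adaptors and ubiquitin enzymes, IKK and related kinases, other IkB proteins and brakes, NF-kB target genes, and markers of neutrophils, monocytes, T cells, B cells, erythroid cells, platelets, and endothelial cells and keratinocytes. After first results were seen, 2 markers were taken out of these lists, and they are not reported here. Likeness was computed over 22300 probes well above background in Cy5 on all arrays, which leaves out *TNFAIP3*. Alternatives were normexp background correction (offset 50) with loess or median centring, the ratio of the processed signals, the values of the series matrix, Cy5 without the reference channel, all probes unfiltered, a strict filter (19946 probes), a filter on a coefficient of variation of 75% (35356 probes), slide as a random or fixed block, the dog as a block, dogs 1 to 3 alone, an unmoderated one-way analysis with Tukey's test as in the methods, leaving out each array, the other probe of a gene, and leaving out dog 4.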

Additional observations from a re-analysis of the deposited data

Results flagged for a closer look

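Among 57 groups of member probes and scores examined for a lone sample, 4 held a dog far from the others, and chance flags about 1 in 20 groups, here 2.85. After ASIT, dog 5 was far below the other dogs in the representative *TNFRSF1A* probe, at −0.30 with the nearest dog at 0.25. In the other *TNFRSF1A* probe, dog 4 was far above the others after ASIT, at 1.11 with the nearest at 0.48. In the representative *NFKBIA* probe, dog 4 was far below the others before ASIT, at −0.47 with the nearest at 0.16. In the representative *TNFAIP3* probe, dog 4 was far above the others after ASIT, at 0.90 with the nearest at 0.22. The causes were not tested.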

How the results depend on the processing

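Of 381 differences of single genes under alternatives, 329 kept their side of the threshold and either kept their sign or rounded to 0.00. Another 1 kept its sign and newly passed the threshold, and 51 changed sign. Of those 51, *NFKB2* in 6 months vs. ctrl with Cy5 alone also newly passed it. Differences that rounded to 0.00, such as *TNF* and *RELA* in 0 vs. 6 months with median centring, were not counted as changes of sign. The cause was not tested for any of the changes below. Leaving out dog 4, all alternatives of the score and slide-centred relations with markers were added after the data were seen.

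Limma called 0 of 18 probes in every comparison under all alternatives except the Cy5 channel alone, which called 2 in 6 months vs. ctrl (*TNF* 0.61, *NFKB2* 0.32) and 1 in the F-test. Over all probes, it called 4096, 1126 and 0 in the 3 comparisons and 2261 in the F-test, where the main analysis called 16, 0, 0 and 0. Of all probes, median centring called 201 in 6 months vs. ctrl, and leaving out dog 4 called 21 in 0 vs. ctrl, with 0 member probes among them. In 0 vs. ctrl, 0 of all probes were called with normexp and loess, median centring, the strict filter, slide as a random block and the methods' test. The F-test called 25 with all probes unfiltered, 16 with the filter on a coefficient of variation, 8 without dog 4 and 7 with the series matrix. In 0 vs. ctrl, the count of member probes at unadjusted p under 0.05 was 1. With normexp and loess, the ratio of processed signals and the series matrix it was 0, beside 7.91%, 11.6% and 11.9% of all probes. It was also 0 with the strict filter (15 member probes left), slide as a random block (correlation 0.135) and the methods' test, beside 8.4%, 7.81% and 6.45%. It was 2 with normexp and median centring, called median centring here, 4 with Cy5 alone and 3 without dog 4, beside 14.7%, 31.8% and 13%. In 6 months vs. ctrl it was 0, against 2 with median centring, 6 with Cy5 alone, 1 with the strict filter and 2 without dog 4, beside 19.6%, 28.1%, 7.91% and 13.2% of all probes. In 0 vs. 6 months it was 0, against 1 with Cy5 alone and 1 without dog 4, beside 8.55% and 7.2%. Leaving out each array in turn, the member counts ran from 0 to 3, from 0 to 2 and from 0 to 1, and the calls stayed at 0. The highest counts came without replicate 4 of group 0, replicate 4 of 6 months and replicate 2 of group 0, respectively. Beside them, 12.2%, 12.8% and 9.85% of all probes had unadjusted p under 0.05. Over all probes, the calls then ran from 0 to 440, from 0 to 2 and from 0 to 103, and in the F-test from 0 to 193. In 0 vs. 6 months, limma called 0 of 18 with the dog as a block, with a fixed effect of slide, and in dogs 1 to 3. At unadjusted p under 0.05 stood 0 of 18 in each, beside 6.56%, 2% and 3.97% of all probes.

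Sizes moved as well: all 30 differences lay from −0.17 to 0.15 with normexp and loess and from −0.32 to 0.15 with median centring. *TNF* was 0.12 and 0.07 in the comparisons with ctrl with the first, and 0.08 in each with the second. Signs turned as follows, in the order 0 vs. ctrl, 6 months vs. ctrl and 0 vs. 6 months where several are given. With normexp and loess, *NFKB2* was 0.02, 0.05 and −0.03, and in 0 vs. 6 months *TNF* was 0.05 and *RELB* 0.01. With median centring, *RELA* was −0.10 in both comparisons with ctrl, 6 months vs. ctrl was −0.18 for *TNFRSF1A*, −0.14 for *NFKB1* and −0.05 for *NFKBIA*, and 0 vs. 6 months was 0.11 for *REL*, 0.15 for *RELB* and −0.03 for *TNFAIP3*. With the series matrix, 0 vs. ctrl was 0.05 for *TNFRSF1B* and −0.01 for *RELA*. With Cy5 alone, *NFKB2* was 0.25, 0.32 and −0.07, *TNFRSF1B* was 0.14 in 0 vs. ctrl, 6 months vs. ctrl was −0.23 for *NFKB1*, and 0 vs. 6 months was 0.12 for *NFKB1*, 0.13 for *REL* and 0.06 for *RELB*. With slide as a random block, *NFKB2* was −0.05 in 0 vs. 6 months. With slide as a fixed block, 0 vs. 6 months was 0.10 for *TNF*, 0.02 for *NFKB1*, −0.28 for *NFKB2* and 0.13 for *REL*. That fit rests on slides 3 and 4, the only slides with both visits. In dogs 1 to 3 with the dog as a block, 0 vs. 6 months was 0.23 for *TNF*, 0.16 for *TNFRSF1A*, −0.13 for *NFKB2*, 0.30 for *REL* and 0.01 for *RELB*. With the other probe, *TNFRSF1B* was 0.07, 0.08 and −0.01, *TNFAIP3* was −0.20, −0.13 and −0.07 from a probe near background, 0 vs. ctrl was 0.02 for *TNFRSF1A* and −0.17 for *RELA*, 6 months vs. ctrl was −0.34 for *NFKB1*, and 0 vs. 6 months was 0.16 for *NFKB1*, 0.16 for *TNF*, from a probe near background on most cAD arrays, and −0.02 for *NFKB2*. Without dog 4, 0 vs. ctrl was 0.10 for *TNFRSF1B* and 0.04 for *NFKB2*, 6 months vs. ctrl was −0.04 for *NFKB1*, 0.03 for *RELB* and −0.07 for *TNFAIP3*, and *REL* was 0.15 in 0 vs. 6 months.

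Leaving out each array in turn, some differences changed sign. In 0 vs. ctrl, these were *TNFRSF1B* (from −0.11 to 0.10), *NFKB1* (from −0.10 to 0.01), *NFKB2* (from −0.11 to 0.05) and *RELA* (from −0.06 to 0.08). In 6 months vs. ctrl, they were *NFKB1* (from −0.04 to 0.08), *NFKB2* (from −0.13 to 0.02), *RELB* (from −0.09 to 0.03) and *TNFAIP3* (from −0.07 to 0.13). In 0 vs. 6 months, they were *TNF* (from −0.39 to 0.01), *NFKB1* (from −0.12 to 0.01), *NFKB2* (from −0.08 to 0.10), *REL* (from −0.14 to 0.05) and *RELB* (from −0.06 to 0.05). *TNF* ran from 0.29 to 0.61 in 0 vs. ctrl and from 0.46 to 0.82 in 6 months vs. ctrl.

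The score of subunits against inhibitors was −0.22, −0.08 and −0.14. It was −0.19, −0.10 and −0.09 with all probes, −0.26, −0.07 and −0.19 with Cy5 alone, −0.12, −0.03 and −0.08 with normexp and loess, −0.16, −0.20 and 0.04 with median centring, and −0.30, 0.00 and −0.30 without dog 4. Leaving out each array, it ran from −0.30 to −0.15, from −0.13 to 0.00 and from −0.22 to −0.07.

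Group sizes of 7 and 8 limit the precision, and the smallest possible exact p was 0.000155 for 8 against 7 arrays. Signal near background limits the dimmer *TNF* probe and both *TNFAIP3* probes on the cAD arrays. Slide and scan day cannot be told apart from disease in the comparisons with ctrl, nor from therapy in dogs 4 to 7.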
